A study of Mus musculus with 6 samples.

Results

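The primary cilium is a single antenna-like projection of the cell membrane in which vertebrate cells transduce Hedgehog signals. Smoothened, the membrane protein that Vismodegib binds, enters the cilium when a Hedgehog ligand releases it from its inhibitor Patched, and the receptor Gpr161 leaves it. This traffic depends on intraflagellar transport (IFT) trains, which motors carry along the ciliary microtubules, on the BBSome, an adaptor that takes receptors out, and on the transition zone, a gate at the cilium's base. Described here are 38 genes of this machinery, listed by name from these 4 parts and from the factors that set the composition of the ciliary membrane. Each of the 38 had a row among the 23381 genes of the table.

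RNA came from mammary tumours that 4T1 cells, a mouse mammary carcinoma line, had formed in Balb/c mice recorded as 10 weeks old, after injection of 500000 cells into the inguinal fat pad. One group of 3 libraries came from tumours of mice given DMSO, the vehicle, and the other 3 from mice given Vismodegib at 2 mg per mouse, both 3 times a week for 3 weeks. Every tumour thus derived from the same cell line in the same strain, and the host's own stroma, vessels and immune cells were part of the sample. The labels do not state that each library came from its own animal, so the tests measure the spread between these samples, which may be technical. Where the tumours of a group are named below, its 3 libraries are meant. Whole tumours were used, and a lower RNA level in them can come from fewer cells of a type or from less RNA per cell, which cannot be told apart here.

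The values are RPKM, which scale the reads of a gene by its length in kilobases and by library depth. The steps between low values gave totals of 34800000 to 58000000 reads per library, the highest in Vismodegib replicate 3. None of the 38 genes was at 0 in any library. For the transcript lengths used here, the thinnest value, Mks1 in DMSO replicate 2, corresponded to 11.7 reads. For a gene to be tested, its mean over the 6 libraries had to reach 0.5 RPKM, and 24 of the 38 reached it (63.2%, against 50.5% of the whole table). Of the other 14, Ift140 lay just under this limit at 0.495 RPKM. Wdr19, which was tested, lay just above it at 0.502 RPKM. Epithelial markers, which a carcinoma should show, were abundant in every library, with summed levels of 1628 to 2768 RPKM over 8 genes. Markers of multiciliated cells, whose motile cilia use the same transport genes, were scarce. Of 15 such markers, 10 had a row, and their sum was 2.75 to 3.70 RPKM in DMSO and 2.28 to 4.89 RPKM in Vismodegib. The regulator Foxj1 alone gave 1.80 to 4.73 RPKM of these sums. The axonemal dynein gene Dnah5 was listed at 0 in 5 libraries and at 0.00299 RPKM in the other, and Mcidas, Rsph4a, Tekt1, Hydin and Sntn had no row.

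Many ciliary genes are targets of RFX transcription factors, which bind a sequence called the X-box near the start of the gene. The windows from 250 bases before to 50 bases after each annotated start (RefSeq, GRCm38.p6) held 33 of the 38 genes. A 6-base core of the X-box, GTTGCC, searched on both strands, was found in 14 of their 34 windows (41.2%), against 12.5% of all 32851 windows. Windows were given for 42 of 45 other ciliary genes, described further on, and 32.7% of these windows held it. This core was kept after the counts of several longer patterns had been seen. A match is a description of the letters and not a measured binding site. Of the 14 genes, 5 whose RNA is described in detail are shown, with 30 bases around the first match and that match in capitals. The Ift57 window held 2 matches, and the second lies outside the bases shown. Each sequence is read on the strand of its gene, so that GGCAAC is the same core on the other strand.
Ift27, chr15:78174073-78174102, minus strand: gggttgatgatgGTTGCCaggagcctgttt
Ift57, chr16:49699195-49699224, plus strand: gaggcgggtctgGTTGCCgtggtgaccggc
Ift88, chr14:57424080-57424109, plus strand: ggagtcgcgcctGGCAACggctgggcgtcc
Kif3a, chr11:53567259-53567288, plus strand: caccccgcaggcGTTGCCccagtctagcgt
Arl13b, chr16:62847204-62847233, minus strand: acagacgctccaGTTGCCtagttaccagag

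The genes with a match did not share a level or a direction. Over the 6 libraries Kif3a averaged 5.98 RPKM, Ift57 2.93 RPKM and Ift27 1.79 RPKM, whereas Arl13b and Ift88 averaged 0.779 and 0.738 RPKM. Ift27 was higher in every Vismodegib library than in any DMSO library, and the other 13 genes with a match had overlapping groups. Of the 7 genes listed for the RFX family and its partners, 5 were tested and none was called. Rfxank and Rfxap, partners of Rfx5, had the smallest p of these. Rfxank was at 4.78 ± 0.780 RPKM in the controls and 5.98 ± 0.655 RPKM in the treated tumours (mean ± SD over 3 libraries per group, as throughout), and Rfxap at 7.24 ± 3.44 and 4.89 ± 0.325 RPKM. Rfx3, a regulator of ciliary genes, was too low to be tested, at 0.348, 0.107 and 0.609 RPKM with vehicle and 0.387, 0.369 and 0.263 RPKM with the drug.

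The levels of the machinery spanned a wide range even within 1 complex. Ift20, a small IFT-B subunit that also works at the Golgi apparatus, had the highest mean over the 6 libraries, 20.2 RPKM, and Dync2h1, the heavy chain of the motor that returns trains to the cell body, had the lowest, 0.0983 RPKM. After Ift20 came Ift43 at 17.2 RPKM, Ift52 at 10.9 RPKM, Ift22 at 7.64 RPKM and Ift46 at 6.12 RPKM. Most neighbours in the order could not be separated. Of 37 neighbouring pairs, 5 kept their order in all 6 libraries and 2 had ranges that did not touch, Kifap3 above Kif3b and Mks1 above Dync2h1. Within IFT-B, means ran from 0.458 RPKM for Ift80 to 20.2 RPKM for Ift20, and within IFT-A from 0.369 RPKM for Ift122 to 17.2 RPKM for Ift43. The median over the 38 genes was 1.27 RPKM. Longer transcripts had lower levels: across the 38 genes, the log2 of transcript length and of the mean RPKM correlated at Pearson's r = -0.57, and across the genes tested at -0.33. These points are genes measured in the same libraries, and RPKM itself divides by length.

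**Figure D1:**
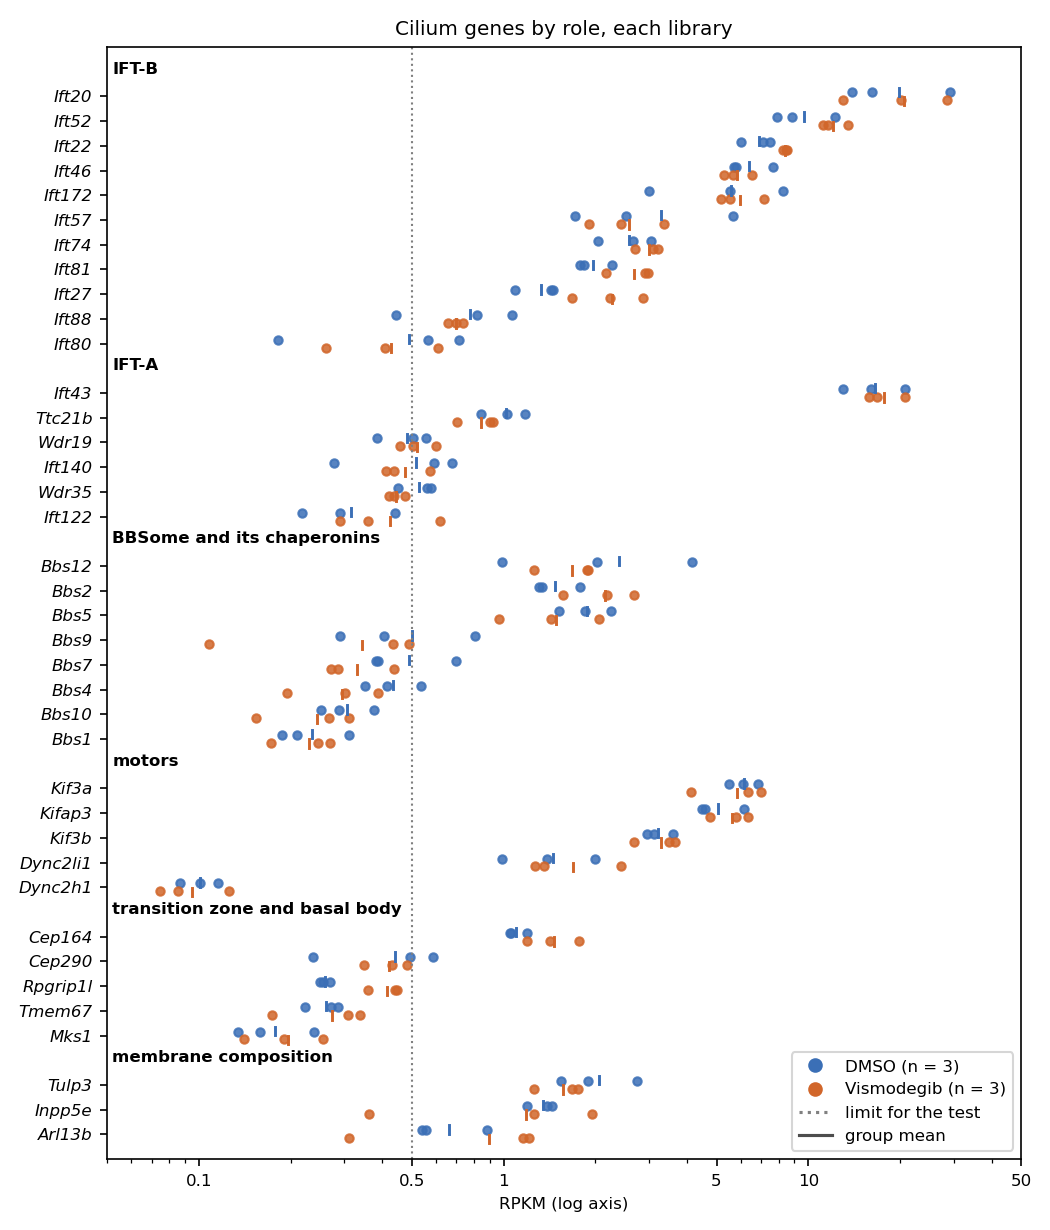
RPKM on a log axis for each of the 38 cilium genes, grouped by role, with 1 point per library (3 DMSO, 3 Vismodegib) and a short bar at each group mean. The dotted line at 0.5 RPKM is the limit on the mean for a gene to be tested. Levels run from Dync2h1 at 0.0749 to 0.126 RPKM up to Ift20 at 13.0 to 29.3 RPKM.

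The study had 1 comparison, Vismodegib against DMSO, and none of the cilium genes was called in it. limma's test on log2(RPKM + 0.5) over 11818 genes gave an adjusted p of 1 for each of the 24 members, and 0% of all genes passed. At an unadjusted p under 0.05 limma had 0 members, against 2.25% of all genes, and its smallest unadjusted p among the members was 0.0561, for Ift27. Of the 24, 15 had differences above 0 and 9 below, with a median of 0.09 on the log2 scale, and 58.4% of all genes tested were above 0, with a median of 0.05. Over all 38 genes, the untested ones included, 19 were above 0 and 19 below. The 95% interval lay inside -1 to 1 on the log2 scale for 19 of the 24. A difference of 1 on this scale is more than a 2-fold change in RPKM, by most in the low genes. Lying inside -1 to 1 thus does not by itself set a 2-fold change in RPKM aside. The interval reached past 1 for Ift27 and Bbs2 and past -1 for Ift57, Bbs12 and Inpp5e.

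Groups did not overlap in 2 of the 24 tested members, Ift22 and Ift27, both higher in Vismodegib. That is 8.33% of the members, where 5.03% of all genes tested had groups without overlap and 4.29% were higher in this way. With a library left out, more groups separate in any gene set. The count became 9 when DMSO replicate 1 was left out, 4 when it was DMSO replicate 3 and 7 when it was Vismodegib replicate 3, where 27.0%, 10.4% and 17.5% of all genes separated. Ift22 and Ift27 were among these each time, which was fixed in advance, since groups that do not overlap stay apart when a library is left out.

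**Figure D2:**
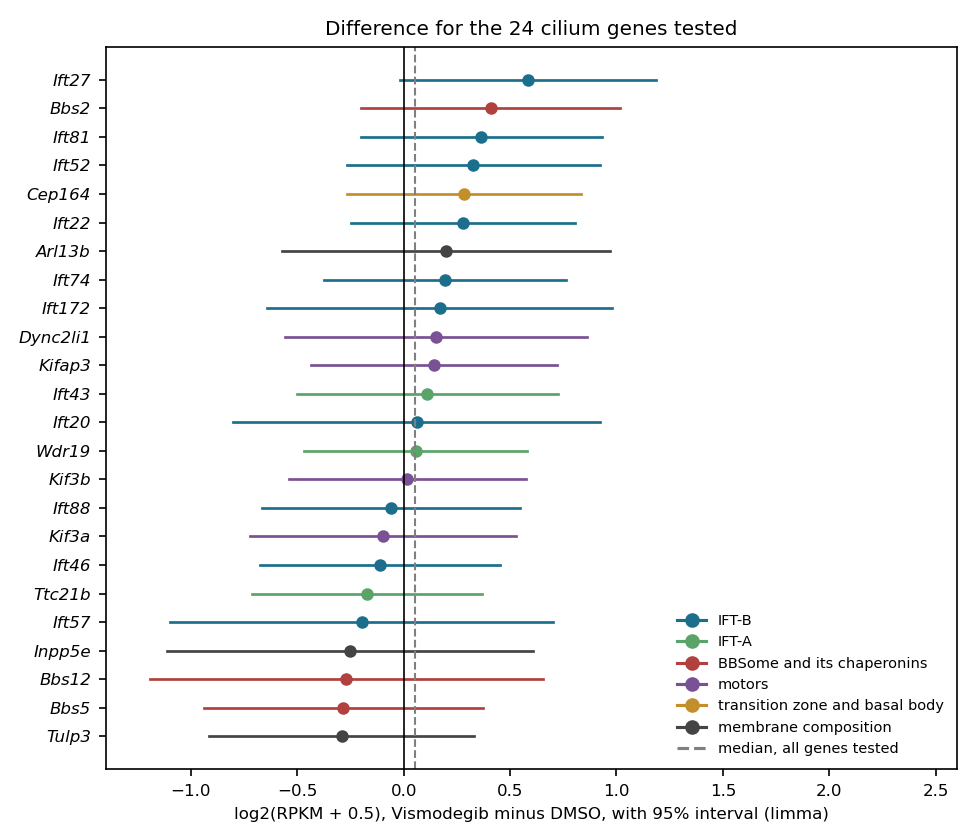
Difference in log2(RPKM + 0.5), Vismodegib minus DMSO, for the 24 cilium genes tested, as a point with limma's 95% interval, coloured by role. The dashed line is the median over all 11818 genes tested, 0.05. Every interval spans 0, and Ift27 comes closest to leaving it, with a lower bound of -0.02.

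IFT-B is the complex of the trains that run outwards to the ciliary tip. Of its 10 tested subunits, 7 had differences above 0, with a median of 0.18. Ift27 encodes a small GTPase-like subunit whose loss leaves cilia in place but traps Smoothened, Patched and the BBSome inside them (ENSMUSG00000016637.7, mm10 chromosome 15, 78159463 to 78174107, minus strand). Its level was 1.43, 1.45 and 1.09 RPKM in DMSO replicates 1, 2 and 3 and 2.24, 1.68 and 2.87 RPKM in Vismodegib replicates 1, 2 and 3. Every treated library lay above every control library, by a narrow margin in Vismodegib replicate 2. The log2 difference of 0.58 (SE 0.265) was the highest of the 24, with a 95% interval from -0.02 to 1.19. Hspb11, which encodes Ift27's direct partner in the train, did not follow it. Hspb11 averaged 9.02 ± 4.20 RPKM in the controls and 7.07 ± 3.12 RPKM in the Vismodegib group, with overlapping groups and a log2 difference of -0.32 (95% interval -1.37 to 0.74).

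Ift22, another GTPase-like subunit of IFT-B, was the steadier of the pair without overlap (ENSMUSG00000007987.12, chromosome 5, 136908150 to 136915404, plus strand). It was at 7.11, 7.47 and 6.04 RPKM in the DMSO tumours and at 8.44, 8.25 and 8.55 RPKM in the Vismodegib tumours, with an SD of 0.152 RPKM in the treated group and 0.746 RPKM in the controls. The gap between the groups was small, and the log2 difference was 0.28 (SE 0.232, 95% interval -0.25 to 0.81). Beside these higher values, the summed epithelial markers were 1628 to 2768 RPKM in DMSO and 2522 to 2668 RPKM in Vismodegib. Of those 8 markers, 6 had differences above 0 and 2, Krt8 and Krt18, below, and 3 were higher without overlap. For comparison, 4.29% of all genes tested were higher without overlap. Summed fibroblast markers were 95.8 to 125 RPKM in DMSO and 118 to 235 RPKM in Vismodegib, with 3 of the 9 tested higher without overlap. Summed skeletal muscle markers were 17.8 to 158 RPKM against 82.2 to 151 RPKM, and summed adipocyte markers 4.75 to 15.2 RPKM against 8.36 to 32.9 RPKM. Of the 7 muscle and 5 adipocyte markers tested, 1 each was higher without overlap. None of the markers of these 4 lists was at 0 in every library of a group, and their part in the Ift22 and Ift27 values was not tested.

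The other IFT-B subunits differed in direction. Ift88, without which cilia do not form, was at 0.444, 0.819 and 1.07 RPKM in the DMSO group and at 0.701, 0.738 and 0.656 RPKM in Vismodegib tumours. The treated tumours lay within the range of the controls, and the log2 difference was -0.06 (95% interval -0.67 to 0.55). Ift57 had the lowest difference of the complex, -0.20 (95% interval -1.10 to 0.70). It was at 1.72, 5.65 and 2.53 RPKM in the controls and 3.37, 2.44 and 1.90 RPKM in the treated tumours, so DMSO replicate 2 stood apart from the other 5 libraries. Ift172, the largest IFT-B subunit, was spread in the same way, at 3.00, 8.27 and 5.53 RPKM in DMSO against 5.95 ± 1.04 RPKM in Vismodegib. Ift74 and Ift81, which together bind tubulin cargo, were at 2.58 ± 0.509 and 1.96 ± 0.266 RPKM with vehicle and at 3.00 ± 0.266 and 2.68 ± 0.453 RPKM with the drug, with log2 differences of 0.19 and 0.37. Ift52, a scaffold of the core, was at 9.66 ± 2.29 and 12.1 ± 1.27 RPKM. Ift20 and Ift46 had differences of 0.06 and -0.11. Ift80, too low to be tested, was at 0.183, 0.716 and 0.567 RPKM in DMSO and 0.611, 0.409 and 0.262 RPKM in the Vismodegib group, with complete overlap.

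IFT-A is needed for the return journey and, together with Tulp3, for bringing receptors such as Gpr161 into the cilium. Its 6 genes were split 3 above 0 and 3 below, and 3 were high enough to be tested, with a median of 0.06. Ift43, a small subunit, was at 13.0, 20.7 and 16.1 RPKM in the DMSO group and 20.8, 15.8 and 16.8 RPKM in Vismodegib tumours, a log2 difference of 0.11 (95% interval -0.50 to 0.73). Ttc21b, whose loss in mice raises Hedgehog signalling, was at 0.843, 1.17 and 1.03 RPKM in the controls and 0.921, 0.905 and 0.704 RPKM in the treated tumours. Its groups overlapped through DMSO replicate 1, and the difference was -0.17 (95% interval -0.71 to 0.37). The other subunits sat close together near the limit for testing. Wdr19 was at 0.482 ± 0.088 RPKM with vehicle and 0.521 ± 0.073 RPKM with the drug. Wdr35 was at 0.452, 0.560 and 0.578 RPKM in DMSO and 0.476, 0.422 and 0.439 RPKM in the Vismodegib group, with the lowest control inside the treated range. Ift140 was at 0.279, 0.675 and 0.590 RPKM against 0.574, 0.438 and 0.412 RPKM. Ift122 was at 0.217, 0.439 and 0.290 RPKM against 0.619, 0.358 and 0.291 RPKM, with Vismodegib replicate 1 the highest of the 6.

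The BBSome takes Gpr161 and other receptors out of the cilium, and Bbs10 and Bbs12 encode chaperonin-like proteins that help to assemble it. Of these 8 genes, 7 had mean log2 differences below 0, with a median of -0.24 over all 8, and only Bbs2 was above. This split was weaker without DMSO replicate 2 or Vismodegib replicate 3. Without DMSO replicate 2 it was 5 below and 3 above, with a median of -0.05. Without Vismodegib replicate 3 it was 6 below and 2 above, with a median of -0.10. With any other library left out it stayed at 7 below and 1 above, with medians from -0.29 to -0.22. Vismodegib replicate 3 had the lowest value in 5 of the 8 genes and DMSO replicate 2 the highest in 5. Bbs2 was at 1.34, 1.31 and 1.78 RPKM in the DMSO group and 2.19, 2.69 and 1.57 RPKM in Vismodegib tumours. Vismodegib replicate 3 lay among the controls, and the log2 difference was 0.41 (SE 0.267, 95% interval -0.20 to 1.02). Bbs5 was at 1.85, 1.53 and 2.24 RPKM against 2.06, 1.43 and 0.966 RPKM, a difference of -0.28 (95% interval -0.94 to 0.37).

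The core subunit Bbs4 was too low to be tested. It was at 0.535, 0.413 and 0.352 RPKM in the controls and 0.302, 0.388 and 0.194 RPKM in the treated tumours, and 1 treated value lay within the controls. Bbs9 had the widest range of all 38 genes relative to its lowest value, 7.47-fold. It was at 0.291, 0.804 and 0.404 RPKM with vehicle and 0.489, 0.435 and 0.108 RPKM with the drug, and its lowest value corresponded to 21.8 reads. Bbs7 was at 0.386, 0.698 and 0.381 RPKM against 0.437, 0.287 and 0.272 RPKM. Bbs1 and Bbs10 were lower still, and their groups overlapped. Bbs1 was at 0.188, 0.310 and 0.209 RPKM against 0.269, 0.247 and 0.173 RPKM, and Bbs10 at 0.289, 0.377 and 0.251 RPKM against 0.268, 0.154 and 0.311 RPKM. Bbs12 varied most in DMSO, at 0.986, 4.16 and 2.03 RPKM, and was at 1.89, 1.87 and 1.26 RPKM in Vismodegib. Mkks, which encodes the third of these chaperonin-like proteins and was listed with the other ciliary genes, had groups that did not overlap. Mkks was at 2.94, 2.76 and 2.29 RPKM in DMSO and 4.03, 3.98 and 4.86 RPKM in the Vismodegib group, with a log2 difference of 0.60 (SE 0.241, unadjusted p = 0.0361, adjusted p = 1 by limma).

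Of the motor genes, the 3 of kinesin-2 had log2 differences from -0.10 to 0.14. Kif3a and Kif3b form the heterodimeric motor kinesin-2, which Kifap3 links to cargo, and it pulls trains outwards. Kif3a was at 6.84, 5.48 and 6.09 RPKM in the DMSO group and 7.01, 6.32 and 4.12 RPKM in Vismodegib tumours, where replicate 3 was below all other libraries. Its log2 difference was -0.10 (95% interval -0.72 to 0.53). Kif3b was at 3.22 ± 0.325 RPKM in the controls and 3.29 ± 0.524 RPKM in the treated tumours, and Kifap3 at 5.06 ± 0.933 and 5.62 ± 0.804 RPKM. The level of Kif3a, per kilobase, was thus above that of its partner Kif3b in both groups. Dync2li1, a light intermediate chain of the returning dynein, was at 1.39, 2.00 and 0.992 RPKM with vehicle and 1.36, 1.26 and 2.44 RPKM with the drug, a difference of 0.15 (95% interval -0.56 to 0.86). Dync2h1 was at 0.0866, 0.116 and 0.101 RPKM against 0.0852, 0.126 and 0.0749 RPKM. Its transcript of 14264 bases collected 46.3 to 76.7 reads per library at this level, and its groups overlapped completely.

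Genes of the transition zone were mostly too low to be tested, with 4 of 5 under the limit. Rpgrip1l, which anchors other proteins of the gate, was the third member without overlap (ENSMUSG00000033282.14, chromosome 8, 91217030 to 91313262, minus strand). It was at 0.251, 0.270 and 0.256 RPKM in DMSO and 0.442, 0.446 and 0.358 RPKM in the Vismodegib group, or 65.8 to 146 reads per library. The controls differed from each other by far less than from the treated tumours. The exact permutation test gave p = 0.1, the smallest that 3 against 3 allows and the value of any gene without overlap. By limma without a filter, the unadjusted p was 0.0387 and the adjusted p 0.970. Of every gene in the table, 5.30% had groups without overlap. Cep164, a protein of the distal appendages that dock the basal body to the membrane, was at 1.05, 1.06 and 1.19 RPKM in the DMSO group and 1.42, 1.19 and 1.77 RPKM in Vismodegib tumours. DMSO replicate 3 and Vismodegib replicate 2 met at the edge, and the log2 difference was 0.28 (SE 0.241, 95% interval -0.27 to 0.83). Cep290, a long coiled-coil protein of the gate, was at 0.589, 0.237 and 0.492 RPKM against 0.431, 0.347 and 0.481 RPKM. Tmem67 was at 0.272, 0.222 and 0.287 RPKM against 0.338, 0.308 and 0.173 RPKM, and Mks1 at 0.158, 0.135 and 0.238 RPKM against 0.255, 0.191 and 0.141 RPKM. In these 3 genes the groups overlapped. Over the 13 untested members other than Rpgrip1l, two-sided exact permutation p ranged from 0.2 to 0.9.

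Arl13b, Inpp5e and Tulp3 set which lipids and receptors the ciliary membrane holds. Arl13b is a ciliary GTPase that brings in Inpp5e, a phosphoinositide phosphatase, and the lipids that Inpp5e leaves decide how much Gpr161 Tulp3 can deliver. In all 3 genes the lowest value was in Vismodegib replicate 3. Arl13b (ENSMUSG00000022911.11, chromosome 16, 62793685 to 62847040, minus strand) had values of 0.541, 0.559 and 0.884 RPKM in the controls and 1.16, 1.21 and 0.312 RPKM in the treated tumours. Replicates 1 and 2 of the treated group were thus above every control and replicate 3 below every control, and the log2 difference was 0.20 (95% interval -0.57 to 0.97). Inpp5e (ENSMUSG00000026925.16, chromosome 2, 26396249 to 26409203, minus strand) had values of 1.20, 1.44 and 1.39 RPKM with vehicle and 1.95, 1.26 and 0.361 RPKM with the drug. Its treated values spanned a 5.39-fold range around tightly grouped controls. The log2 difference was -0.25 (95% interval -1.11 to 0.61), and it was 0.17 without Vismodegib replicate 3. Tulp3 was at 1.55, 2.75 and 1.89 RPKM in DMSO and 1.68, 1.76 and 1.26 RPKM in the Vismodegib group, with the lowest difference of the 24, -0.29 (SE 0.273, 95% interval -0.91 to 0.33). Gene spans of Arl13b and Inpp5e overlap those of Stx19 and Pmpca on the other strand, as 8 of the 38 genes overlap a protein-coding gene. Whether reads were assigned by strand is not given in the sources used here.

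Across libraries, the members' highest and lowest values were unevenly spread, as were those of all genes. Vismodegib replicate 3 held the lowest value of 13 of the 38 genes, and DMSO replicate 2 the highest of 12. Over all genes tested, 19.2% were lowest in Vismodegib replicate 3 and 29.8% highest in DMSO replicate 2. DMSO replicate 1 was lowest for 10 members, 4 of them in IFT-B and 3 in IFT-A, and for 31.7% of all genes tested. These percentages leave out genes under the limit for testing, whereas the member counts include 14 such genes. Over all 38 members, the median deviation from the gene mean ran from -0.10 in Vismodegib replicate 3 to 0.13 in Vismodegib replicate 1. Over the 24 tested members it was lowest in DMSO replicate 1, -0.09, and highest in Vismodegib replicate 1, 0.14. Over all genes tested it was lowest and highest in the same libraries, at -0.16 and 0.18. GC-rich genes were relatively high in Vismodegib replicate 3 and DMSO replicate 2, where deviation and GC content correlated across genes at 0.29 and 0.21, and relatively low in Vismodegib replicates 1 and 2, at -0.22 and -0.35. Genes of cilium disassembly and the cell cycle, from a list of 12, summed to 136 RPKM in DMSO replicate 2, 55.8 RPKM in DMSO replicate 1, 95.2 RPKM in DMSO replicate 3 and 77.7 to 84.2 RPKM in Vismodegib. Aurka, the kinase that starts cilium disassembly, was at 7.35, 18.0 and 10.3 RPKM in the DMSO group and 11.0, 9.40 and 10.8 RPKM in Vismodegib tumours. DMSO replicate 2 was again the highest and DMSO replicate 1 the lowest, as in Ift57, Ift172, Ift80, Ift140 and Bbs12. The part of GC content and of dividing cells in the members' values was not tested. The median SD of log2(RPKM + 0.5) over the 6 libraries was 0.27 for the 24 tested members and 0.36 for all genes tested. The members' median level was lower, 2.18 against 3.96 RPKM, and the pseudocount narrows the SD of low genes, so the SDs are not on an equal footing.

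**Figure D3:**
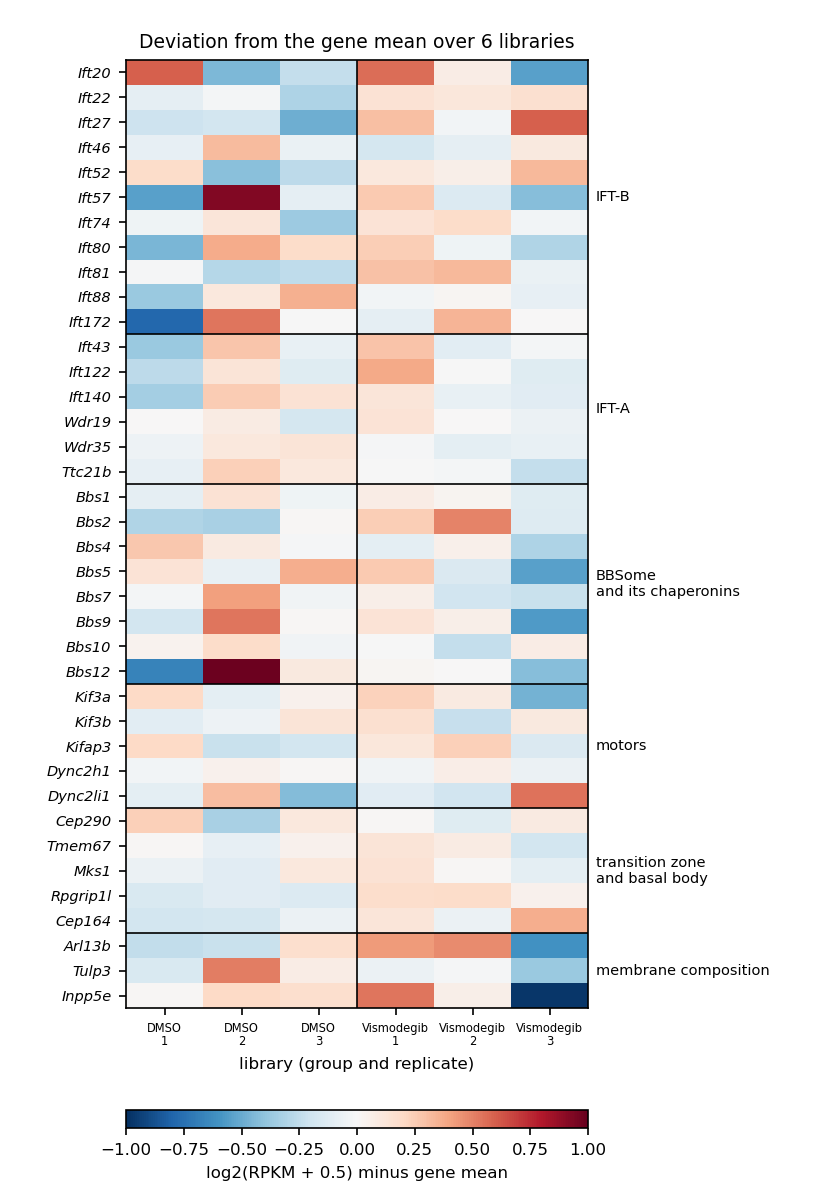
Deviation of each cilium gene from its own mean over the 6 libraries, in log2(RPKM + 0.5), with red above and blue below the mean, rows grouped by role and columns by library. Vismodegib replicate 3 is blue for Arl13b, Tulp3, Inpp5e and most BBSome genes, and DMSO replicate 2 is red for Ift57 and Bbs12.

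Other genes of the cilium, from a list of 45, gave a similar picture. Of the 35 tested, 18 had differences above 0 and 17 below, with a median of 0.004, and limma called none. At an unadjusted p under 0.05 by limma there was 1, Mkks, against 2.25% of all genes tested. Among those tested, groups did not overlap in Mkks, higher, and in Fbf1, a distal appendage gene, which was at 9.15 ± 0.361 RPKM in the controls and 8.56 ± 0.138 RPKM in the treated tumours. For comparison, 5.03% of all genes tested had groups without overlap. Tctn2, a transition zone gene, was at 0.772 ± 0.231 RPKM with vehicle and 1.21 ± 0.194 RPKM with the drug. Arl6, the GTPase that recruits the BBSome to membranes, was at 1.95, 2.31 and 2.52 RPKM in DMSO and 4.13, 3.77 and 1.93 RPKM in the Vismodegib group. As in Arl13b, replicates 1 and 2 of the treated group were above every control and replicate 3 below every control, the last only by 1.93 against 1.95 RPKM. The same arrangement held in Lztfl1, a regulator of BBSome traffic, at 0.731, 0.813 and 0.975 RPKM against 1.34, 1.26 and 0.358 RPKM, and in the transition zone gene Tmem237, at 8.59, 5.24 and 5.70 RPKM against 9.14, 9.16 and 2.41 RPKM. It also held in Iqcb1, at 1.72, 1.76 and 1.80 RPKM against 2.34, 2.78 and 1.28 RPKM, and in Rpgr, which was too low to be tested. How many of all genes had this arrangement was not counted. Lztfl1, Tmem237, Iqcb1, Rpgr and Fbf1 were named after their values were seen, as were Hspb11, Rfx3, Aurka, Grk2, Gli1, Gli2, Krt8 and Krt18.

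Hedgehog transducers that pass through the cilium or act on its signal ranged more widely in level than the machinery. In the controls Grk2, a kinase that phosphorylates Smoothened, averaged 46.5 RPKM, and the transcription factors Gli1 and Gli2 averaged 0.0333 and 0.0276 RPKM. Of 15 listed, 11 were tested, 3 above 0 and 8 below, with a median of -0.07 and none called by limma. Smo was at 3.93, 3.05 and 3.65 RPKM in the DMSO group and 4.51, 4.63 and 3.98 RPKM in Vismodegib tumours. Smo alone of the 11 tested had groups that did not overlap, by a margin of 3.93 to 3.98 RPKM, where 5.03% of all genes tested had none. Gpr161, the receptor that the BBSome and Tulp3 move, was at 1.29, 0.651 and 1.10 RPKM in the controls and 1.02, 1.12 and 0.718 RPKM in the treated tumours. Gli3, the factor that is processed to a repressor in cells with a cilium, was at 1.19, 0.799 and 1.18 RPKM against 0.927, 1.17 and 0.901 RPKM. Ptch1 was too low to be tested, at 0.183, 0.140 and 0.410 RPKM against 0.215, 0.300 and 0.126 RPKM. In these last 3 genes the groups overlapped.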

How the data were processed

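The 3 DMSO and 3 Vismodegib libraries were read as pairs of 150 bases, per the labels, and were grouped by their titles. The authors deposited RPKM values, 1 column per library. The submitters' processing notes name mm10, Partek, SAMtools, HISAT2, STAR, cutadapt and bcl2fastq 2.17. What each tool did, which gene models were used and whether reads were assigned by strand is not given in the sources used here. RPKM depends on the library total, and values contain fractions of reads.

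Tests used limma 3.58.1 (R 4.3.3) on log2(RPKM + 0.5) for the 11818 genes whose mean reached 0.5 RPKM: lmFit and eBayes with a mean-variance trend, group as the sole term, two-sided, Benjamini-Hochberg adjusted over these genes. The scale understates changes of low genes. Genes under the limit were compared by an exact permutation test. The members and lists were chosen with earlier results of these data known. Members named in full were the highest and lowest difference of each role, those without overlap, those too low to be tested, and Ift88, Kif3a, Dync2h1, Arl13b, Tulp3 and Bbs4; of other lists, up to 3 genes with the smallest p, and Smo, Ptch1, Gpr161 and Gli3. Genes of other lists outside this rule are marked in the text as named after their values were seen, and Foxj1 and Dnah5 were given as markers. Of the skeletal muscle, adipocyte, endothelial and leukocyte lists, 0 genes of 7, 5, 3 and 9 tested passed limma's test, with medians of 1.38, 1.27, 0.39 and -0.11; 0 of 8 epithelial and 9 fibroblast genes passed, with medians of 0.74 and 0.74.

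Depth came from the steps of 6992 genes with 1 transcript in GENCODE M21 (mm10), where 84.3% to 85.7% of low values were whole reads within 0.02 reads. A total too high by a whole factor would pass this check. Reads per gene use the longest transcript, which may not be the authors' length, and cover counting error only. Positions, length and GC content are from GENCODE M21, and promoter windows from RefSeq (GRCm38.p6). The fit was tested on simulated data. Alternatives changed 1 choice at a time: pseudocount, filter, scaling, eBayes options, library weights, replicate block, GC and length trends, and each library left out.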

Additional observations from a re-analysis of the deposited data

How the results depend on the processing

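No member passed limma's test under any of the 17 alternatives, and the smallest adjusted p among them was 0.0824, for Ift27 with library weights (0.0824 to 1 over its alternatives). Over all genes, 420 were called with library weights, which limma set at 7.28 for DMSO replicate 3 and 0.32 for each other DMSO library without full convergence, 1 with the replicate block, and 0 to 19 with each library left out, against 0 as reported. The members' median of 0.09 shifted by less than the spread of the library medians (0.089) in every alternative, but that spread is about as large as the median itself. The median ran from -0.001 to 0.16 with each library left out, turning below 0 without Vismodegib replicate 1. Members without overlap numbered 1 with a filter of 2 RPKM, which left 13 members, and 3 without a filter, which took in all 38. They numbered 3 with median-ratio scaling and 3 to 9 with each library left out, against 2 as reported. This count was not made under quantile scaling or with GC and length trends removed. Of the 24 tested members, 12 kept the sign of their difference in each alternative that gave a value and 12 did not, among them Ift20, Kif3a, Kif3b, Ift88 and Inpp5e; the cause was not tested. Deviations of same-numbered libraries from their group means correlated across genes at 0.003, 0.038 and -0.305, and those of differently numbered libraries at -0.231 to 0.303. Centring within groups of 3 ties these correlations to each other, so they cannot decide whether same-numbered samples were paired. With the replicate block, 0 members were called, and their median was 0.09. For members at 0.1 to 0.5 RPKM, 11.7 to 229 reads per library limit what can be seen.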
